A study of Saccharomyces cerevisiae with 27 samples.

Results

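The cytosolic ribosomal protein genes of Saccharomyces cerevisiae were taken as all rows of the authors' deposited table named RPL or RPS with a number and an optional A or B, together with the stalk genes RPP0, RPP1A, RPP1B, RPP2A and RPP2B. This rule found 137 genes of 6709, of which 81 encode proteins of the large and 56 of the small subunit. They form 59 pairs of an A and a B copy and 19 genes with no copy of that name. The table holds 5 comparisons among 9 groups of 3 libraries each, of poly-A RNA from yeast labelled S288C and grown in the medium CSM. In the first, a strain with OLE1 under the MET3 promoter (POLE1::PMET3 integration) is compared between the groups OLE1met250 and OLE1met0, described as low and high in lipid unsaturation. The authors' header for it sets the strain with methionine against the strain alone, and the titles give methionine as 250 and 0. In the next 2, strains with the plasmid pCM188-SPT23p90 or pCM188-MGA2p90, from which the processed fragment of an OLE1 activator is made, are compared without doxycycline (spt23p90, mga2p90) and with it (spt23p90-dox, mga2p90-dox). The last 2 set the BY4742 background after 90 min of argon (ArgonST), or grown in a microfermenter for long-term exposure to hypoxia (ArgonLT), against 1 aerobic group (BY), so both have the same reference libraries.

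A cytosolic ribosome is built from a large and a small subunit, and its proteins are needed in matched amounts. In yeast many of these proteins are encoded by paralogous genes left by an ancient genome duplication, and the copies usually differ in regulatory sequence more than in coding sequence. Ribosomal protein transcription is among the largest outputs of a growing yeast cell. It depends on Rap1, Fhl1, Ifh1 and Sfp1 and is known to follow nutrient signalling through the TOR and protein kinase A pathways.

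All log2 fold changes are from the authors' deposited table, with the group that gives a comparison its name in the numerator. Rose and fell are used where the authors' q from Cuffdiff, which adjusts p for the number of genes, was under 0.05. Levels, errors and values of single libraries are not part of the table, which leaves each value without an SD and its depth unknown. The spread between replicates enters through q alone. A value of 10 or -10 stands for a ratio with no finite log2, and an exact 0 with a q of 1 for a missing value. Tested means a q under 1. Per the deposited table SPT23 and MGA2 were higher where their fragments were to be expressed, at log2 values of 2.55 and 3.73. OLE1 was at -0.03 with a q of 0.925 in OLE1met250, so it does not check that label. MGA2 was listed at 4.33 with a q of 0.000304 in OLE1met250 too, a comparison whose labels name no MGA2 plasmid, and its part in the results there was not tested. It was also at 2.23 in ArgonLT and at -1.46 in spt23p90, with the same q. The labels of OLE1met250 disagree on methionine, with 0 in the treatment field and 250 in the title. The authors' header for the comparison names this group as with methionine, as the title does.

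The coding sequences of the A and B copies shared between 69.2% (RPP1) and 99.4% (RPL1) of their aligned bases, with a median of 93.2% over the 59 pairs, and in 20 pairs the copies were at least 95% identical. They are shown first because this likeness sets how well reads can be assigned to a copy: how the authors' tools split reads that fit both copies is not stated in the sources used here, and the values of single copies are uncertain to that extent. The first 90 bases of 3 intronless pairs and the whole of the shortest are given from the R64 genome in RefSeq, on the coding strand, with capitals where the copies differ. RPL1A lies at chrXVI:135790-135879 (plus strand) and RPL1B at chrVII:254641-254730 (plus strand), and the stretches differ at 2 bases. RPL9A at chrVII:228240-228329 (minus strand) and RPL9B at chrXIV:499681-499770 (plus strand) differ at 8 bases. RPL15A at chrXII:202501-202590 (minus strand) and RPL15B at chrXIII:510259-510348 (minus strand) differ at 5 bases. The complete coding sequences of RPL41A at chrIV:130407-130484 (minus strand) and RPL41B at chrIV:221724-221801 (minus strand) are 78 bases long and differ at 1 base.
RPL1A: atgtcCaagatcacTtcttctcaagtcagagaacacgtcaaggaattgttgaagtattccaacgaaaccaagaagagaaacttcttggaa
RPL1B: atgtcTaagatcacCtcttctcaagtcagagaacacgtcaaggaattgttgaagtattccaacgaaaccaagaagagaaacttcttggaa
RPL9A: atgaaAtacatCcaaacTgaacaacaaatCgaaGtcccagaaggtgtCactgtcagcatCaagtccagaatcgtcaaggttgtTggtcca
RPL9B: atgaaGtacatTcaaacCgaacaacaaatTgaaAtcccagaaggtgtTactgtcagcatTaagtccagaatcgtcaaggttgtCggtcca
RPL15A: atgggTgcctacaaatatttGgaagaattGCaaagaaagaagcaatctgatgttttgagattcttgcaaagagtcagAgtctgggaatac
RPL15B: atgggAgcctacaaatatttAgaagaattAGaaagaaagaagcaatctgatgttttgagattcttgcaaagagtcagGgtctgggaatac
RPL41A: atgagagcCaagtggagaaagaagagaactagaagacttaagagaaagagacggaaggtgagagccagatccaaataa
RPL41B: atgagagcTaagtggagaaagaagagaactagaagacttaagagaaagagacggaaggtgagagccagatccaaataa
RPL9 and RPL15 were among the pairs whose copies differed most in ArgonLT, and so was RPL7, with a coding identity of 96.7%. The part of read assignment in these differences was not tested.

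Ribosomal protein genes fell nearly without exception in ArgonLT. Of 133 tested members in the authors' deposited table, 128 fell and none rose, which is 96.2% of them, against 18.4% of all 5702 tested genes called lower and 24.1% called higher. The median log2 fold change of the members was -1.98, a 3.95-fold lower level, while the median of all tested genes was 0.09. The members made up 12.2% of all 1052 genes called lower. The falls lay close together: 114 of the 128, or 89.1%, were between -2.5 and -1.5 on the log2 scale. Any effect of the culture in ArgonLT, as of the microfermenter or the length of growth, cannot be told apart from that of hypoxia.

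The subunits had similar medians in ArgonLT. All 56 small subunit genes fell, with a median log2 of -2.00 and a range from -2.51 to -1.01, in the authors' deposited table. Of the large subunit genes 72 of 77 tested fell, with a median of -1.95. The A copies had a median of -2.02 and the B copies of -1.92, and 17 of the 19 genes without a second copy fell, with a median of -2.02. The largest falls were those of RPL9A at -2.89, which is 7.39-fold, RPL18B at -2.62, RPL1A at -2.53, RPS6A at -2.51 and RPL7A at -2.49.

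In ArgonST, by contrast, the members lay slightly above 0. The authors' deposited table called 1 of 135 tested members higher and 0 lower with Cuffdiff, where 4.86% of all tested genes were called higher and 2.41% lower. No unadjusted p values were used here. Only 16 of the 134 finite values were below 0, and the median was 0.17 where that of all tested genes was 0.05. The member called higher was RPL41A, listed at 10 with a q of 0.0268, which has no finite ratio. The difference between the ArgonLT and ArgonST values was not tested, and both rest on the same BY libraries.

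**Figure D1:**
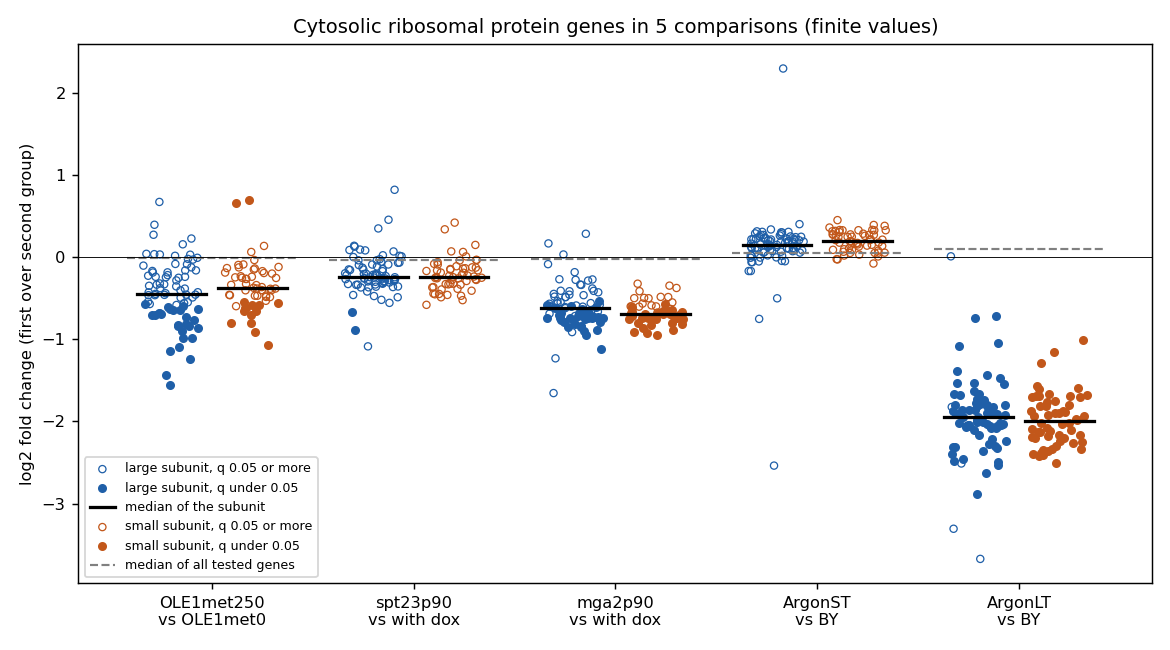
Log2 fold changes of the ribosomal protein genes (y axis) in the 5 comparisons (x axis), with large subunit genes in blue and small subunit genes in orange, filled where the authors' q was under 0.05. Black bars are subunit medians and dashed grey lines the medians of all tested genes. Values at 10 or -10 are not drawn. In ArgonLT nearly all points lie near -2, in mga2p90 near -0.7, and in ArgonST just above 0.

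With the MGA2 fragment expressed, 72 of 136 tested members fell, or 52.9%, where 8.58% of all tested genes were called lower and 12.2% higher in the authors' deposited table. The median was -0.67, a 1.59-fold lower level, and 131 of 134 finite values were below 0. Small subunit genes had 35 falls among 56 and a median of -0.69, and large subunit genes 37 falls among 80 and a median of -0.63. The largest falls were those of RPL18B at -1.12, RPS30A at -0.95, RPL9A at -0.95, RPS0B at -0.93 and RPS22A at -0.91. RPL41B, listed at 10 with a q of 0.00904, was the 1 member called higher. The smallest change called among all genes in this comparison was an absolute log2 of 0.52. Doxycycline was present only in the reference group, and its effect and that of the fragment cannot be told apart.

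With the SPT23 fragment expressed the members lay a little below 0, and few passed the threshold. The authors' deposited table called 2 of 135 tested members lower, or 1.48%, where 5.49% of all tested genes were called lower and 6.86% higher, and no member higher. Those called were RPL22B at -0.89 (q 0.00822) and RPL18B at -0.67 (q 0.0119). The median was -0.24 against -0.04 for all tested genes, with 116 of 134 finite values below 0. Large and small subunit genes had medians of -0.25 and -0.24. Whether the fragments of MGA2 and SPT23 differ in this was not tested. Doxycycline was again confined to the reference.

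In OLE1met250 most members lay below 0, and a smaller share of them fell than in mga2p90 or ArgonLT. Of 136 tested members in the authors' deposited table, 39 fell, or 28.7%, where 14.5% of all tested genes were called lower, and 2 rose, where 16.7% were called higher. Of the 136 finite values 122 were below 0, and the median was -0.40. The large subunit had 26 falls among 80 and the small subunit 13 among 56, with medians of -0.44 and -0.38. The largest falls were those of RPL22B at -1.55, RPL35A at -1.44, RPL31B at -1.24, RPL35B at -1.14 and RPL27B at -1.09. RPL22, RPL31 and RPL35 sit at or near the exit of the tunnel through which the new protein chain leaves the ribosome. The rises were those of RPS9A at 0.69 (q 0.0301) and RPS22B at 0.66 (q 0.0332). OLE1 itself was not called lower here, so these values are those of the groups as labelled. By header and title the groups differ in methionine, and its effect and that of the control of OLE1 cannot be told apart.

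The comparisons OLE1met250, mga2p90 and ArgonLT share no libraries. Every one of the 39 members that fell in OLE1met250 and of the 72 that fell in mga2p90 also fell in ArgonLT, in the authors' deposited table, as nearly all members did there. Between OLE1met250 and mga2p90 24 members were shared, which is 61.5% of the first list and 33.3% of the second. These shares lie near those of all tested members, of which 52.9% fell in mga2p90 and 28.7% in OLE1met250. In all, 26 members fell in 3 comparisons, 61 in 2, 41 in 1 and 9 in none, and no member fell in more than 3. For 24 of the 26 the comparisons were OLE1met250, mga2p90 and ArgonLT. RPL18B fell in spt23p90, mga2p90 and ArgonLT and was at 0.67 with a q of 0.114 in OLE1met250. RPL22B fell in OLE1met250, spt23p90 and ArgonLT and was at -0.18 in mga2p90.

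The genes for the stalk, the flexible arm of the large subunit that recruits elongation factors, lay in ArgonLT within the range of most members. RPP0, the stalk base protein, was at -2.01, RPP1A at -1.88, RPP1B at -1.98, RPP2A at -1.68 and RPP2B at -1.73 in the authors' deposited table, and all 5 fell. RPL12A and RPL12B, whose product binds beside the stalk, fell as well, at -1.66 and -2.04 on the log2 scale. In mga2p90 RPP1B fell by 0.77, RPP2A by 0.84 and RPP2B by 0.74, while RPP0 was at -0.61 and RPP1A at -0.45 without passing. In OLE1met250 only RPP2B of these passed, at -0.98.

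Of the genes around the catalytic and central parts of the large subunit, most moved with the rest. RPL3, which lies close to the peptidyl transferase centre, fell by 1.38 in ArgonLT in the authors' deposited table, one of the smaller falls. RPL10, a protein added late in the cytoplasm, fell too, and RPL2A and RPL2B were at -1.81 and -2.28. RPL5, RPL11A and RPL11B, whose products join the ribosome together with the 5S RNA, all fell, RPL5 to -1.90 and RPL11A to -2.31. RPL11B fell by 0.84 in OLE1met250 and RPL11A by 0.74 in mga2p90, and in each case the other copy did not pass. RPL40A and RPL40B, made as fusions to ubiquitin, fell in ArgonLT, at -1.86 and -2.25. RPL40B was also lower in OLE1met250 (-0.84) and mga2p90 (-0.85), where RPL40A was at -0.25 and -0.42 without passing.

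The list of exit tunnel genes, chosen for their place in the ribosome, held 7 falls among 16 in OLE1met250 with a median log2 of -0.54 in the authors' deposited table, compared with -0.40 over all members. That is 43.8%, beside 28.7% of tested members and 14.5% of all tested genes. It had 7 falls among 16 in mga2p90 (median -0.59), or 43.8%, beside 52.9% and 8.58%. In ArgonLT it had 14 among 16 (median -1.87), or 87.5%, beside 96.2% and 18.4%. The difference between this list and the other members was not tested. RPL31A and RPL31B fell in OLE1met250, at -0.90 and -1.24, and in ArgonLT, at -2.02 and -1.54. RPL35A and RPL35B fell in OLE1met250, at -1.44 and -1.14, and their coding sequences are 99.2% identical. RPL19A and RPL19B, whose product reaches across to the small subunit, fell in OLE1met250, at -0.64 and -0.98. RPL25, which offers a docking site at the tunnel exit, was at -0.46 there without passing and fell by 0.71 in mga2p90. RPL4A and RPL4B, whose product lines the tunnel, passed in ArgonLT alone, both with a value of -1.54.

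As all 56 small subunit genes fell in ArgonLT, so did those of the beak, the mRNA channel and the platform. Of the genes for the beak, RPS10A, RPS10B, RPS12 and RPS31 were at -1.90, -1.75, -1.90 and -2.17 in the authors' deposited table. RPS2 and RPS3, at the entry of the mRNA channel, were at -2.08 and -2.25, and RPS15, near the decoding site, at -2.02. RPS30A fell by 1.29 and RPS30B by 1.68. At the exit of the channel RPS26A and RPS26B were at -1.70 and -1.89, RPS28A and RPS28B at -1.67 and -1.57, and RPS14A and RPS14B at -1.69 and -1.15. RPS14B is known for a feedback in which the protein binds the RNA of its own gene. In OLE1met250 the exit and platform list had 5 falls among 9, with RPS26B and RPS1A both at -0.80. The entry and decoding list had no fall and 1 rise (RPS9A) among 9, where 14.5% of all tested genes were called lower and 16.7% higher, and the difference between these short lists was not tested. RPS20, a head protein, fell by 1.06 in OLE1met250, the largest fall among small subunit genes there.

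The A and B copies were then set against each other. In ArgonLT both copies fell in 53 of 59 pairs in the authors' deposited table, only the A copy in 2, only the B copy in 3 and neither in 1. In mga2p90 both fell in 18 pairs, only A in 14 and only B in 16. In OLE1met250 both fell in 10, only A in 6 and only B in 11. No pair had a called rise in one copy and a called fall in the other in any comparison. The median of A minus B, the difference of the copies' log2 fold changes, was between -0.07 and 0.04 in all 5 comparisons. In ArgonLT the A copy had the lower value in 33 pairs and the B copy in 23. The table carries no error, so differences between copies have no test and are given as values. A copy that passed beside a copy that did not is not shown to differ from it.

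**Figure D2:**
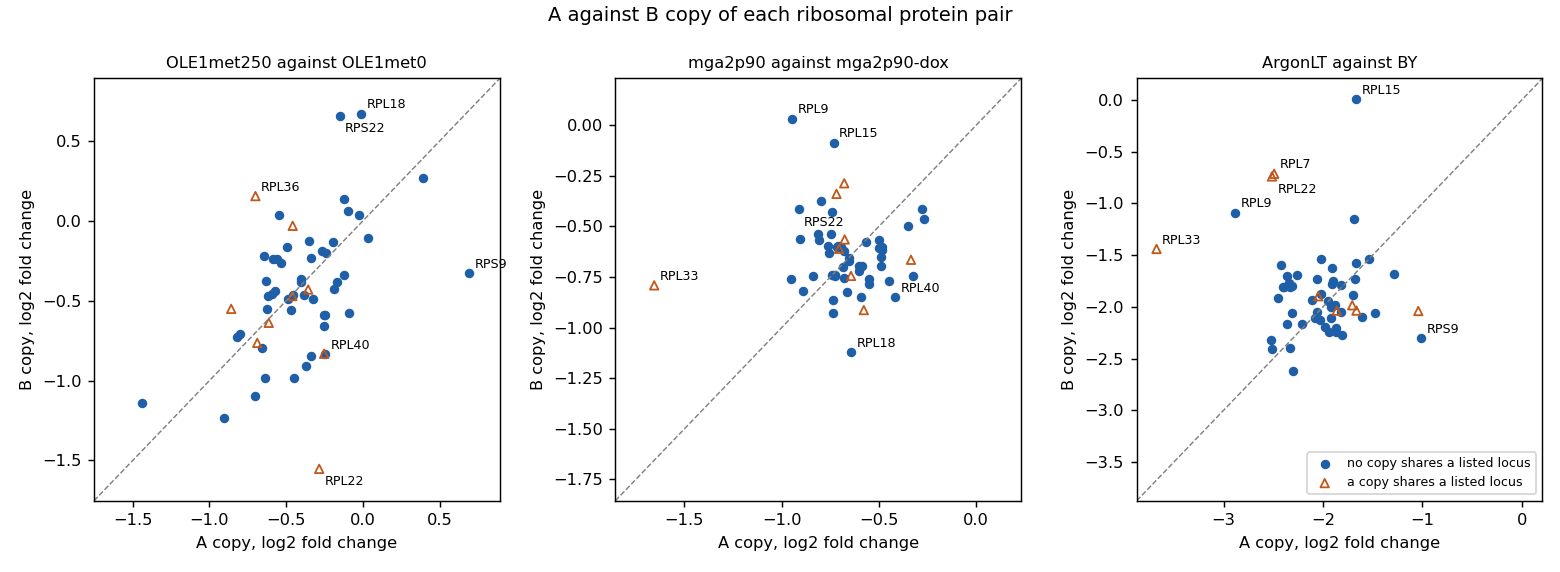
Log2 fold change of the B copy (y axis) against that of the A copy (x axis) for each pair with finite values for both, in OLE1met250, mga2p90 and ArgonLT. Orange triangles mark pairs in which a copy shares its listed locus with another row, and the dashed line is equality. In ArgonLT the points crowd near -2 for both copies, with RPL15, RPL9, RPL7, RPL22 and RPL33 above the line and RPS9 to its right.

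Across pairs, the values of the copies were related in OLE1met250 (Pearson r of 0.45 over 58 pairs, 0.71 over the 20 at least 95% identical and 0.27 over the other 38). In the other comparisons r over all pairs lay between -0.14 and 0.07. Among pairs at least 95% identical it was 0.31 in spt23p90, 0.24 in mga2p90, 0.19 in ArgonST and 0.07 in ArgonLT. Among the remaining pairs it was -0.22, -0.16, 0.07 and -0.26. Copies with a shared locus are included, and r without them was not computed. These r values are descriptions across genes that share libraries and, within pairs, reads. The median absolute difference was 0.29 in ArgonLT, 0.23 in OLE1met250, 0.16 in spt23p90, 0.15 in mga2p90 and 0.10 in ArgonST. In ArgonLT it was 0.25 among the pairs at least 95% identical and 0.30 among the others.

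RPL9, RPL15 and RPS9 had the largest differences in ArgonLT among pairs whose loci hold no other row. RPL9A, for a protein near the stalk base, was at -2.89 and RPL9B at -1.09 (both q 0.000304) in the authors' deposited table. In mga2p90 RPL9A fell by 0.95 and RPL9B was at 0.03 (q 0.927). RPL15A fell by 1.66 in ArgonLT while RPL15B was at 0.01 with a q of 0.986, the only value above 0 among the 133 tested members. In mga2p90 RPL15A fell by 0.73 and RPL15B was at -0.09. RPL15B was called in none of the 5 comparisons.

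RPS9A and RPS9B, for a protein at the mRNA entry site, went the other way round. RPS9A was at -1.01 in ArgonLT and RPS9B at -2.30 in the authors' deposited table, a difference of 1.29. In OLE1met250 RPS9A rose by 0.69 and RPS9B was at -0.33 (q 0.286), a difference of 1.02. RPS22B, the other member that rose there, stood beside RPS22A at -0.15 (q 0.665), and in ArgonLT it was at -1.70 where RPS22A was at -2.36. RPL8 also had its A copy higher in ArgonLT, with RPL8A at -1.04 and RPL8B at -2.04, although the locus of RPL8B holds another row.

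RPL7B and RPL22B had the smallest falls in ArgonLT, at -0.71 (q 0.0269) and -0.74, in the authors' deposited table. RPL7A fell by 2.49, so the copies differed by -1.78, with a coding identity of 96.7%. RPL7B also shares its listed locus with another row, YPL197C, at -0.12 with a q of 0.863. The product of RPL22 is known to repress splicing of the RPL22B intron. RPL22B had the largest called fall among members in OLE1met250 and spt23p90. The value of RPL22A beside it was -2.51 in ArgonLT with a q of 0.570, and its locus is shared as well.

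**Figure D3:**
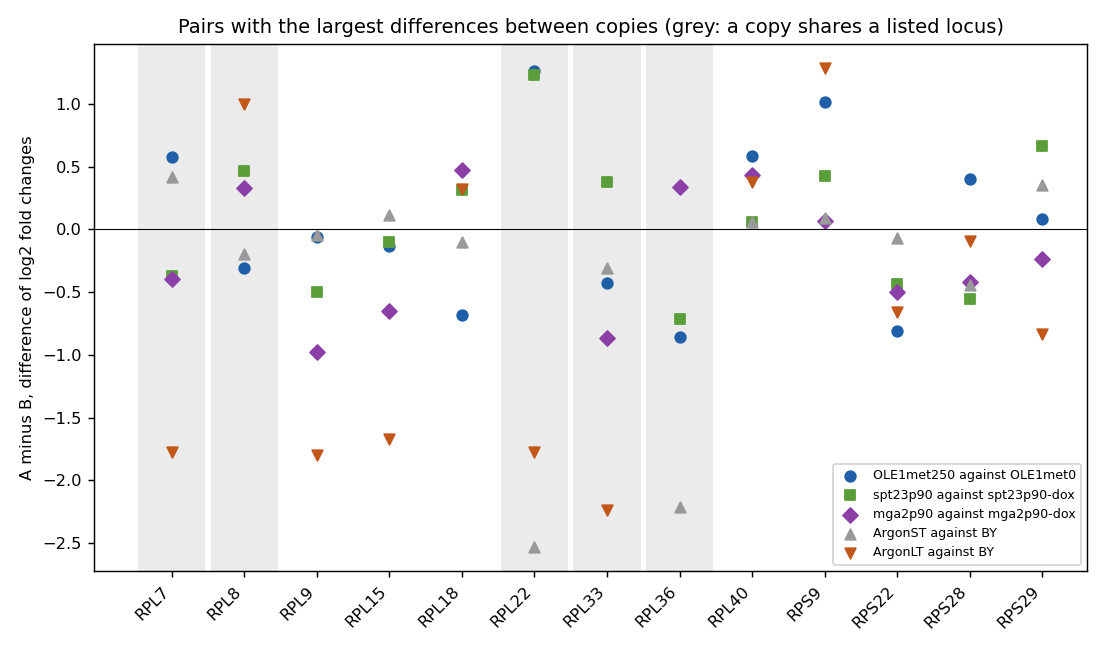
Difference of the log2 fold changes of the A and B copies (y axis) for the pairs that had 1 of the 6 largest differences in some comparison (x axis), with a symbol for each comparison. Grey bands mark pairs in which a copy shares its listed locus with another row. RPL9, RPL15 and RPS9 carry differences beyond 1 in ArgonLT outside the bands, and the extreme values of RPL22, RPL33 and RPL36 lie within them.

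Of the 9 members not called lower in ArgonLT, 6 share their listed locus with another row of the deposited table that was called lower. In all, 17 members have such a row, and in 16 of these the systematic names place it on the opposite strand. None of the 17 other rows is among the protein-coding genes of RefSeq. Whether reads were counted by strand is not stated in the sources used here. Without strand, reads of overlapping genes cannot be told apart, so the values of both rows are uncertain, also for RPP0, RPL7B, RPL8B, RPL10, RPL12A, RPL12B, RPL13B, RPL21A, RPL36A, RPS2 and RPS27A. The 6 members were RPL22A, RPL28, RPL33A, RPL36B, RPL39 and RPL43A, and in the authors' deposited table none of them was called in any comparison.

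The rows that share the loci of these 6 members fell in ArgonLT, by the choice made above, and 3 of them also fell in mga2p90. BUD28, in the locus of RPL22A, was at -2.01 in ArgonLT and -0.86 in mga2p90 (q 0.000304 and 0.00299) in the authors' deposited table, where RPL22A was at -2.51 (q 0.570) and -10 (q 0.247). YPL142C, in the locus of RPL33A, fell by 1.62 and 0.92, where RPL33A was at -3.67 (q 0.446) and -1.66 (q 0.594). OPI11, in the locus of RPL43A, fell by 1.82 and 0.69, and RPL43A had a q of 1 in all 5 comparisons. YGL102C, in the locus of RPL28, fell by 1.93 in ArgonLT and by 0.87 in OLE1met250, and BUD19, in that of RPL39, by 2.21 in ArgonLT. YPL250W-A, in the locus of RPL36B, fell by 1.95 in ArgonLT, where RPL36B was at -10 with a q of 1. In mga2p90 YGL102C was at -0.42 (q 0.235), BUD19 at -0.41 (q 0.165) and YPL250W-A at -0.57 (q 0.0584), without passing. Over the 6 rows the ArgonLT values ran from -2.21 to -1.62 with a median of -1.94, beside -1.98 over the members. A call as lower in ArgonLT was a condition of their choice, so their fall there is no separate result. Of the rows in the loci of the other members with a shared locus, 3 fell in ArgonLT and 8 were not called. Which of the overlapping genes gave these reads was not tested.

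**Figure D4:**
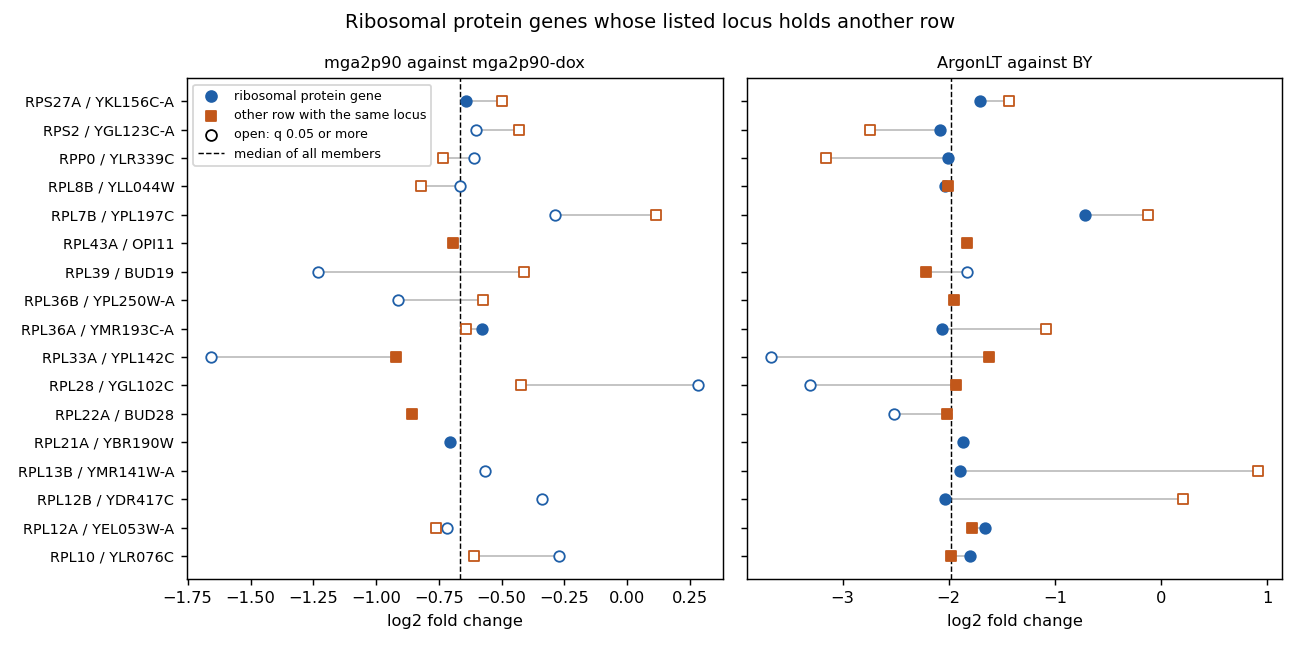
Log2 fold change (x axis) of the 17 ribosomal protein genes whose listed locus holds another row (blue circles) and of that row (orange squares), in mga2p90 and ArgonLT. Filled symbols had a q under 0.05 and the dashed line is the median of all members. Untested values and those at 10 or -10 are not drawn. In ArgonLT the rows BUD28, YPL142C, OPI11, YGL102C, BUD19 and YPL250W-A are filled while the ribosomal protein genes beside them are open or absent.

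When the 17 members with a shared locus were left out, 117 of 118 tested members fell in ArgonLT, the exception being RPL15B. The remaining pairs had no difference between copies beyond 0.44 in ArgonST, so the differences of -2.53 for RPL22 and -2.21 for RPL36 there rest on values with shared loci and q values of 0.579 and 0.462. In ArgonLT 3 of the 48 remaining pairs differed by more than 1 (RPL9, RPL15 and RPS9), and in OLE1met250 only RPS9 did. The other 2 members without a call in ArgonLT are RPL41A and RPL41B, whose coding sequences are printed above. RPL41A was listed at 0.39 in OLE1met250, 0.17 in mga2p90, 10 in ArgonST and an exact 0 in the other 2, and RPL41B at 0.27 in OLE1met250, -10 in spt23p90, 10 in mga2p90 and an exact 0 in both argon comparisons, in the authors' deposited table. Their calls in ArgonST and mga2p90 rest on values with no finite ratio.

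Introns and place in the genome took no part in the choice of the genes and were read beside their values. An intron interrupts the coding sequence of 89 of the 137 genes, and 48 have none. The share over all genes was not computed. In ArgonLT 83 of 87 tested genes with an intron and 45 of 46 without one fell, with medians of -2.00 and -1.91 in the authors' deposited table. In mga2p90 52 of 88 with and 20 of 48 without an intron fell, with medians of -0.67 and -0.68. In 10 places 2 members are direct neighbours among the protein-coding genes of RefSeq, 5 of them divergent, 3 tandem and 2 convergent. How many such places other sets of genes have was not computed. In OLE1met250 RPS19B fell by 0.59, while RPL18B beside it was at 0.67 without passing (q 0.114). Whether neighbours moved together was not tested.

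Promoters were searched in the 500 bases before each start codon on both strands, and matches of different motifs were counted separately and can overlap. ACCCNNACA, a short form of the Rap1 site, was found at 54 of 137 members, or 39.4%, and at 4.69% of 5865 other protein-coding genes of RefSeq. GACGCA, a short form of the Fhl1 site, was found at 15.3% of members and 10.8% of other genes. AAAATTTT, a core of the RRPE element, stood at 12.4% of both, GCGATGAG, the PAC element, at 0.730% and 4.93%, and a form of the Abf1 site at 17.5% and 22.8%. Of the members with ACCCNNACA 50 of 52 tested fell in ArgonLT, with a median of -2.06 in the authors' deposited table, and of those without it 78 of 81, with a median of -1.90.

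The windows around the Rap1-type match are shown for 4 of the 7 pairs with the largest differences in ArgonLT, those in which exactly 1 copy had a match, with the match in capitals (in RPL9A on the other strand). They were chosen after their values were seen, and pairs with smaller differences also had a match in 1 copy only. The match begins 251 bases before the start codon in RPL7A, 239 in RPL8A, 310 in RPL9A and 245 in RPL22B. The windows are chrVII:366214-366272 (minus strand), chrVIII:36231-36289 (minus strand), chrVII:228606-228664 (minus strand) and chrVI:65144-65202 (minus strand) of R64 in RefSeq, each printed on the strand of its gene.
RPL7A: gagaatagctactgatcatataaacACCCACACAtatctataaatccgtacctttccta
RPL8A: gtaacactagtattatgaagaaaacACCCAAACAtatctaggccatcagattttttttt
RPL9A: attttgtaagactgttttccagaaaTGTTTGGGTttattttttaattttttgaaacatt
RPL22B: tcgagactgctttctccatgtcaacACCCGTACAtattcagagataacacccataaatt
The copy with the match fell more in RPL7 and RPL9, at -2.49 and -2.89, and less in RPL8, at -1.04 beside -2.04, in the authors' deposited table. RPL22B fell by 0.74 beside the uncertain value of RPL22A. In RPL15 and RPS9 neither copy had these letters in the window.

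The genes that make, control and use ribosomal proteins were read from lists chosen by function. Of the 33 translation factors 28 fell and 2 rose in ArgonLT, with a median of -1.16 in the authors' deposited table, a smaller shift than the -1.98 of the ribosomal protein genes. These are 84.8% and 6.06% of the list, where 18.4% of all tested genes were called lower and 24.1% higher. TEF4, a subunit of the exchange factor of elongation factor eEF1A, was at -2.32, and TIF1, the helicase eIF4A, fell too. The rises were those of ANB1 at 5.20 and HEF3 at 2.92, the oxygen-repressed form of eIF5A and a second form of the elongation factor eEF3, while HYP2 and YEF3, the usual forms, were at -1.74 and -1.55. Of the 11 ribosome-associated factors 10 fell, or 90.9% beside the same 18.4%, with a median of -1.53. ASC1, a protein of the small subunit that the naming rule leaves out, was at -2.45, and the chaperone gene SSB1 at -2.14.

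In OLE1met250 6 of 33 translation factors rose, or 18.2%, near the 16.7% of all tested genes, and none fell, with a median of 0.21 in the authors' deposited table, led by HEF3 at 2.15, PAB1 at 1.00 and HYP2 at 0.91, and ASC1 rose by 0.80. The chaperones dedicated to single ribosomal proteins fell in 6 of 12, or 50.0%, where 14.5% of all tested genes were called lower. They were led by TSR2, the escort of Rps26, at -1.24 and SYO1, the importer of Rpl5 and Rpl11, at -1.01. In mga2p90 the translation factors had 4 falls, among them TIF11 at -0.83, and 2 rises, ANB1 at 1.29 and HEF3 at 1.00, with a median of -0.37. These are 12.1% and 6.06% of the list, beside 8.58% and 12.2% of all tested genes, and no chaperone was called. In ArgonLT 7 of the 12 chaperones fell, led by BCP1 at -0.99, which is 58.3% where 18.4% of all tested genes were called lower. In ArgonST 1 chaperone fell, YAR1 at -0.68, which is 8.33% of the list beside 2.41% of all tested genes. In spt23p90 no factor, associated gene or chaperone was called by Cuffdiff.

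Among 18 regulators of ribosomal protein genes 9 rose and 2 fell in ArgonLT in the authors' deposited table, or 50.0% and 11.1%, where 24.1% and 18.4% of all tested genes did. CRF1, a corepressor at these promoters, rose by 2.27, IFH1, their coactivator, by 1.64 and TCO89, a subunit of TOR complex 1, by 1.36. RRP7 and UTP22, which are found in a complex with Ifh1, were at -1.18 and -0.64. CRF1 also rose by 1.70 in mga2p90 and by 0.93 in OLE1met250. In mga2p90 TCO89 rose as well, by 0.57, and UTP22 fell by 0.60. These 2 rises and 1 fall are 11.1% and 5.56% of the list, beside 12.2% and 8.58% of all tested genes. In OLE1met250 5 regulators rose and 3 fell, or 27.8% and 16.7%, beside 16.7% and 14.5% of all tested genes. DOT6 rose there by 1.30, FPR1 by 1.28 and SCH9 by 0.99, while HMO1 fell by 0.78, RRP7 by 0.64 and SFP1 by 0.60. In spt23p90 IFH1 rose by 0.81, ABF1 fell by 1.06 and RRP7 fell by 0.63. This 1 rise and these 2 falls are 5.56% and 11.1% of the list, beside 6.86% and 5.49% of all tested genes. In ArgonST YAK1, a kinase that acts on Crf1, rose by 0.90, KOG1 by 0.85 and STB3 by 0.79. These 3 are 16.7% of the list, beside 4.86% of all tested genes, and 0 regulators fell, beside 2.41%. RAP1 and FHL1 were called in no comparison.

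**Figure D5:**
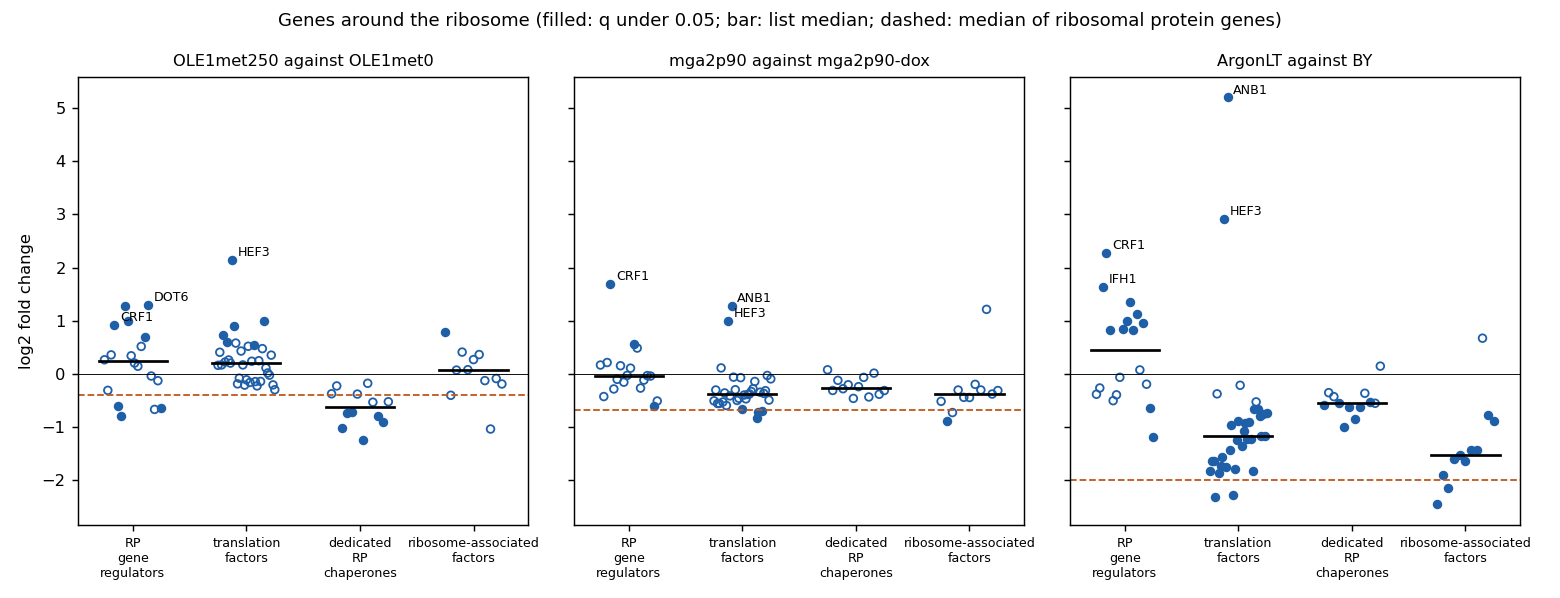
Log2 fold changes (y axis) of the regulators of ribosomal protein genes, translation factors, chaperones of ribosomal proteins and ribosome-associated factors (x axis) in OLE1met250, mga2p90 and ArgonLT. Filled points had a q under 0.05, black bars are list medians and the dashed orange line is the median of the ribosomal protein genes. In ArgonLT the translation factors lie mostly below 0, with ANB1 at 5.20 and HEF3 at 2.92 above it.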

How the data were processed

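The 27 libraries, in 9 groups of 3 given by the sample titles, enter only through a table that holds 1 value per gene and comparison, with 0 columns of per-sample values. Per the file headers, the authors' deposited log2 values are differential expression and their q values are adjusted p-values. Trimmomatic 0.33, TopHat2 2.0.14 and Cuffdiff 2.2.1 with build R64 are named, per the submitters' processing notes, and their settings, the annotation and any use of strand are not stated in the sources used here. No test was run in this work. Members were counted at a q under 0.05, and medians were taken over finite values with a q under 1. All 137 members matched RefSeq R64 by systematic name, and 133 starts were 1 base lower in the table. Copies were aligned globally with Biopython 1.88 and identity counted over all alignment columns. The counting steps were tested on simulated data. The members and lists were chosen with earlier results of these data known. Named members are the 5 largest rises and falls per comparison, the 6 largest pair differences, members called in 3 or more comparisons, those at limit values, the stalk genes and, from each further list, up to 3 called genes. Others were named by role or after their values were seen. Alternatives were a q under 0.01, a 2-fold minimum, leaving out limit values, pairs at least 95% identical or shared loci, subtracting the median of all genes, and including a q of 1.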

Additional observations from a re-analysis of the deposited data

How the results depend on the processing

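At a q under 0.01 the members called lower numbered 18 in place of 39 in OLE1met250, 1 in place of 2 in spt23p90 and 25 in place of 72 in mga2p90, and those called higher 0 in OLE1met250 and 0 in ArgonST. With a minimum change of 2-fold, 6 members were lower in OLE1met250, 0 in spt23p90 and 1 in mga2p90, and 0 were higher in OLE1met250. In ArgonLT the count of 128 stayed within a ratio of 1.5 under these and the other alternatives. Without limit values, and without pairs at least 95% identical, 0 members were higher in mga2p90 and in ArgonST, and without such pairs 1 was lower in spt23p90. Subtracting the median of all genes shifts the members' medians by that same value, at most 0.09 in size (ArgonLT). It cannot change A minus B, so for medians it is no check. Under the other alternatives run for medians, no median of all members, of a subunit or of A minus B moved by as much as 0.1. None of the members' medians changed sign. Leaving out members with shared loci was chosen after seeing the data. No paired analysis was possible because the table holds no value per library, and for the same reason no replicate could be left out. With no counts or errors, the depth behind a value and the precision of a difference between copies are unknown.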
